A study of Mus musculus with 30 samples.

Results

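The genes described here encode integrin chains and the cytoplasmic proteins that tie integrins to the actin cytoskeleton at focal adhesions. They form a list of 47 gene symbols, 16 integrin chains and 31 other adhesion proteins, and were found by symbol among the 35973 genes of the RNA table for blebbistatin and the 35972 genes of the RNA table for Y27632. The list was drawn up by function, with earlier results of these data known, and no measured value entered the rule. All 47 genes had a mean of at least 10 normalised counts in both tables and were tested.

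The cells were primary fibroblasts of mouse tail tendon, labelled as wildtype in every group, and all were treated in medium with 0.1% FBS. RNA was sequenced from cells given the solvent DMSO, from cells given blebbistatin at 10 µM, which blocks the ATPase of non-muscle myosin II, and from cells given Y27632 at 30 µM, a second inhibitor of cell contractility. There were 3 poly(A) RNA libraries per group, with 23375386 to 37061737 reads in genes, and both inhibitors were compared with the same 3 DMSO libraries. A further 9 ATAC libraries, 3 per group, had the same treatments, and 12 more formed a design of 4 groups, with or without doxycycline (10 ng/mL) and with or without blebbistatin (10 µM), again with 3 libraries in each. The labels do not state what doxycycline induced, the age of the animals, the length of treatment, or whether the libraries of a group came from separate cultures or animals, so the p-values measure only the spread between these libraries, which may be technical.

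Integrins are pairs of an alpha and a beta chain that span the membrane and bind matrix proteins outside the cell. Inside the cell, talin and kindlin bind the beta chain and switch the receptor on, the ILK-PINCH-parvin complex and vinculin, alpha-actinin and filamin couple it to actin, and LIM-domain proteins such as zyxin gather at adhesions under tension. In tendon, fibroblasts use these contacts to pull on collagen. Several of the linker genes are textbook targets of serum response factor, which binds the CArG box of serum response elements, and of YAP and TAZ, which act through TEAD factors.

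Fibroblast markers were present, and markers of fibroblasts and of several other cell types moved with the inhibitors. All 12 fibroblast and tendon markers were detected, with a summed level of 815606 to 872759 normalised counts in the DMSO libraries. Of the 12, 9 were called with blebbistatin, 5 higher and 4 lower, which is 75% beside 53% of all genes tested. With Y27632 7 were called, 6 higher and 1 lower, which is 58.3% beside 35.9%. All 6 epithelial markers had a mean under 10 in every group. The endothelial list summed to 3166 to 3230.0 in DMSO and 2006 to 2251 with blebbistatin, almost all of it from Tek, while Pecam1 and Emcn were under 10. Of its 3 tested markers only Tek was called, as lower. The log2 changes of the 3 with blebbistatin ran from -0.63 to 0.60, with a median of 0.30. The 6 macrophage and leukocyte markers were present at a summed 5912 to 6494 in DMSO and 8329 to 9363 with blebbistatin, and at 6137 to 6751 in DMSO and 8795 to 9978 with Y27632. The Schwann cell list summed to 194 to 240.3 in DMSO and 353 to 383 with blebbistatin, where 2 of 3 tested markers were higher, and to 202 to 249.8 in DMSO and 242 to 300.2 with Y27632, where 1 of 3 was. The chondrocyte list, mostly Sox9 with Acan under 10, summed to 137 to 166 in DMSO and 209.8 to 229 with blebbistatin, and to 142 to 172 in DMSO and 224 to 232 with Y27632, and Sox9 was called higher with each. The smooth muscle and pericyte list went from 2278 to 2569 in DMSO to 2689 to 2991 with blebbistatin, with 2 of 5 markers higher and 2 lower, and of the skeletal muscle list, at 38.7 to 51.7 in DMSO, 4 of 5 markers were under 10. In these bulk samples, a change in the number of cells of one type and a change in RNA per cell cannot be told apart.

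Blebbistatin lowered most of the adhesion genes and split the integrins. A gene was called changed at a limma adjusted p under 0.05 on log2(normalised count + 1). Of all 14882 genes tested, 53% were called with blebbistatin, 26.1% higher and 26.9% lower. Of the 47 members, 37 were called, 7 higher and 30 lower, and their median log2 change was -0.27 beside 0.0021 over all genes tested. None of the 31 adhesion proteins other than integrins rose and 25 fell, with a median of -0.38, while 7 of the 16 integrin chains rose and 5 fell. Without DMSO replicate 3, 4 members were called higher instead of 7.

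Y27632 also lowered more of these genes than it raised. Across 14833 genes tested, 35.9% were called, 18.1% higher and 17.8% lower. Of the 47 members, 33 were called, 9 higher and 24 lower, with a median log2 change of -0.14 beside 0.0040 over all genes tested. Among the 31 adhesion proteins 22 fell and 2 rose, Pxn and Enah, and among the 16 integrin chains 7 rose and 2 fell. Called changes of at least 0.5 on the log2 scale were made by 19.3% of all genes with blebbistatin, 8.52% lower and 10.8% higher, and by 13 members that fell and 5 that rose. With Y27632 they were made by 8.32% of all genes, 4.36% lower and 3.96% higher, and by 5 members that fell and 5 that rose. The 3 treated libraries did not overlap the 3 controls for 39 members with blebbistatin, beside 60.2% of all genes, and for 32 members with Y27632, beside 48.1%. Because both comparisons use the same DMSO libraries, their values are set side by side and are not independent.

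**Figure D1:**
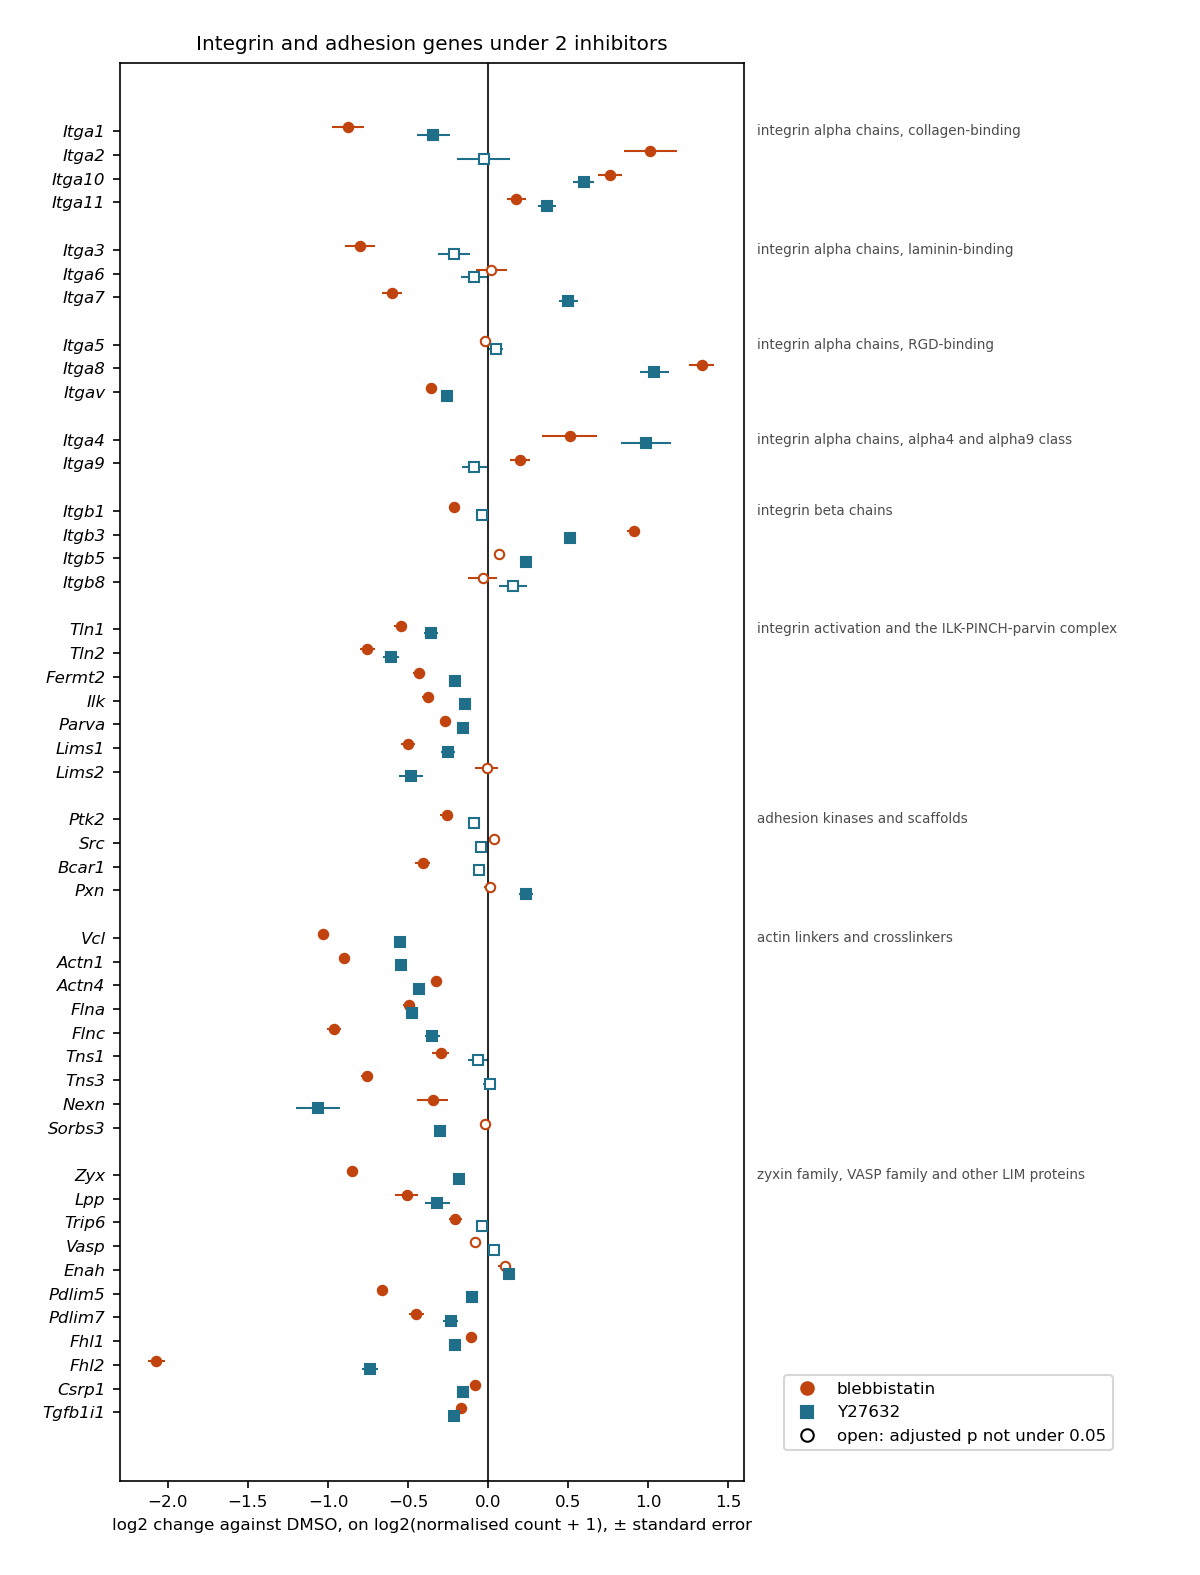
Log2 change against DMSO of each of the 47 genes, grouped by role, for blebbistatin (circles) and Y27632 (squares), with the standard error as a horizontal bar and open symbols where the limma adjusted p was not under 0.05. Below the integrins nearly every filled symbol lies left of 0, the 2 exceptions being Pxn and Enah with Y27632, whereas integrin chains lie on both sides, from -0.88 to 1.34 with blebbistatin.

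**Figure D2:**
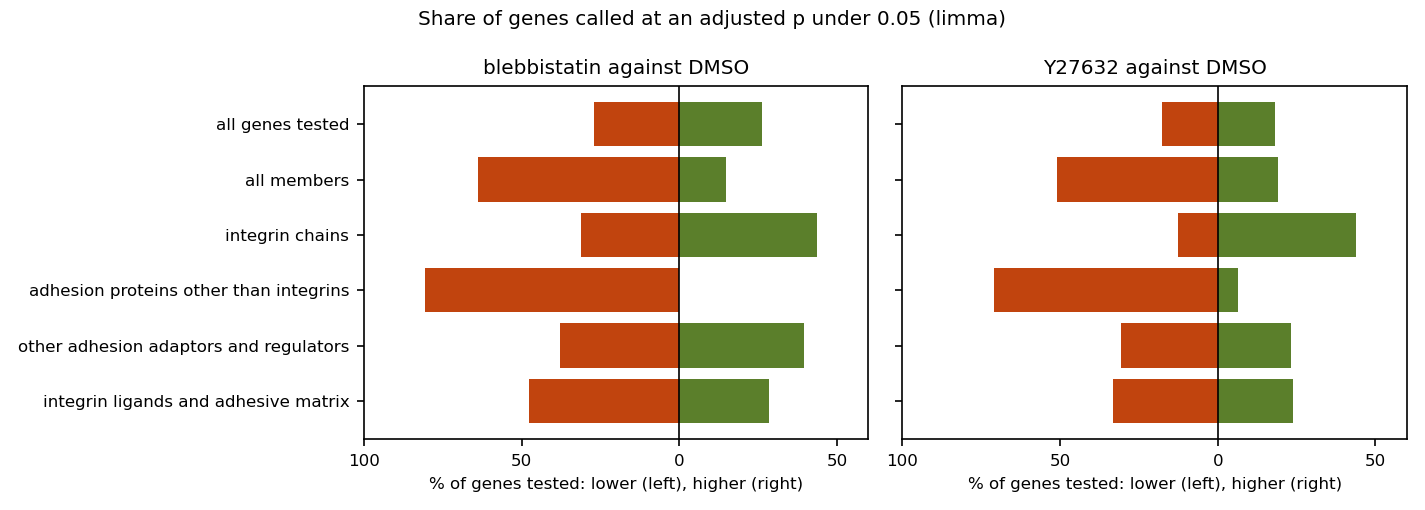
Percent of genes called lower (left) and higher (right) at a limma adjusted p under 0.05, for all genes tested, the 47 members, the 16 integrin chains, the 31 other adhesion proteins, and other lists of adhesion adaptors and integrin ligands. The 31 adhesion proteins have the longest bars to the left, 80.6% with blebbistatin and 71.0% with Y27632, and all genes tested are split almost evenly.

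The promoters of some of these genes are shown because they hold a serum response element core before the start. Others are shown because they hold a TEAD site core and also overlap an accessible site that changed. Of the 47 members, 36 had a promoter in the RefSeq table for GRCm38.p6, taken as 250 bases before to 50 after each start. A serum response element core (CC, then bases that are each A or T, then GG), searched on both strands, was found in 5 of the 36, which is 13.9%, against 1.81% of the 27025 genes in the table. The 5 genes were Fhl2, Vcl, Fermt2, Fhl1 and Trip6, and Fhl2 had a core in both of its promoters. The TEAD site core GGAATG was found in 8 of 36 members, 22.2% against 16.6% of all genes, and the AP-1 site core TGANTCA in 4, 11.1% against 8.97%. With 1 mismatch allowed in the serum response element core, the shares were 33.3% of members and 23.8% of all genes. These shares describe letters in a window and were not tested. The comparison is not like with like: the 27025 genes were not limited to those tested for RNA. The 36 members also had 47 promoters, more per gene than the 32851 promoters of the 27025 genes. Below, the 250 bases before each start are printed from 5′ to 3′ on the gene's strand, with the serum response element core in capitals for Fhl2, Vcl, Fermt2 and Fhl1, and the TEAD core, read on the opposite strand, in capitals for Actn4 and Flnc.
Fhl2, chr1:43196762-43197011, minus strand: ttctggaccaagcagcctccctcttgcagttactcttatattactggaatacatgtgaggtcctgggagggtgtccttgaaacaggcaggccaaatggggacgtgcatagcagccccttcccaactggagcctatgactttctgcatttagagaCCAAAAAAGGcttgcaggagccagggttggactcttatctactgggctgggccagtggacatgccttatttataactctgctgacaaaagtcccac
Fhl2, chr1:43163962-43164211, minus strand: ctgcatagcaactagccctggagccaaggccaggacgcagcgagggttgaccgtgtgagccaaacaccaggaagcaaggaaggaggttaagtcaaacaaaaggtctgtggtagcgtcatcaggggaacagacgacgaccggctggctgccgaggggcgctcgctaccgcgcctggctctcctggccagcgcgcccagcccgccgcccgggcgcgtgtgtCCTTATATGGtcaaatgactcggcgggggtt
Vcl, chr14:20929148-20929397, plus strand: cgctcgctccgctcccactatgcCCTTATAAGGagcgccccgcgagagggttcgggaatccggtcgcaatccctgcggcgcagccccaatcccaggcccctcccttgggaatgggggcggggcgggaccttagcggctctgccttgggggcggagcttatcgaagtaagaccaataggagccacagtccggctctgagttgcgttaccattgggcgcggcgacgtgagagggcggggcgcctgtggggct
Fermt2, chr14:45530066-45530315, minus strand: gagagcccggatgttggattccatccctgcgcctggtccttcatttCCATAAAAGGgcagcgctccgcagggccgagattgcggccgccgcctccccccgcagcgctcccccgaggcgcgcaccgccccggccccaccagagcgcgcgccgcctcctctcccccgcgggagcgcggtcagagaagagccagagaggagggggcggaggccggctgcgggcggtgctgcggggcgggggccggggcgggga
Fhl1, chrX:56779433-56779682, plus strand: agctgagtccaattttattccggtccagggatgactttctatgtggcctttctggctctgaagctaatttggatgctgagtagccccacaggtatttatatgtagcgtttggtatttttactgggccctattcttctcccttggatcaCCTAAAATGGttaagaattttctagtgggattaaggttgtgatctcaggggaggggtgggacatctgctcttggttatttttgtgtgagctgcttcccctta
Actn4, chr7:28962333-28962582, minus strand: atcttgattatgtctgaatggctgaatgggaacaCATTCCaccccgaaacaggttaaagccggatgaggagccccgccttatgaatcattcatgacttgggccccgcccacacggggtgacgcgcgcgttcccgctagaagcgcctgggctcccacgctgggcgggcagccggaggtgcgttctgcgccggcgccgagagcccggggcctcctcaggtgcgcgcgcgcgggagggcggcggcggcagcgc
Flnc, chr6:29433006-29433255, plus strand: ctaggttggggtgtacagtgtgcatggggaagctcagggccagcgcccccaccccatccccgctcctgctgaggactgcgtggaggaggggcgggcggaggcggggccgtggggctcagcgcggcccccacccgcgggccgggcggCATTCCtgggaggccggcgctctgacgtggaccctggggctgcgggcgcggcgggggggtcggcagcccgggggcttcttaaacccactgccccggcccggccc
The cores began 96 and 31 bases before the start in the Fhl2 promoters, 227 bases before it in Vcl, 204 in Fermt2 and 102 in Fhl1. The Trip6 core lay just after the start. All 5 genes with a core were called lower with blebbistatin, beside 63.8% of the 47 members, but by differing amounts. Their log2 changes were -2.07 for Fhl2, -1.03 for Vcl, -0.43 for Fermt2, -0.20 for Trip6 and -0.11 for Fhl1. With Y27632 they were -0.74, -0.55, -0.21, -0.04 and -0.21 in the same order, and Trip6 was not called. A link between core and change was not tested.

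Among the collagen-binding alpha chains, blebbistatin raised 3 of 4 and lowered 1. Of all genes tested, 26.1% were called higher and 26.9% lower. Itga1 encodes the alpha chain of a receptor for collagen IV and I. Its normalised counts were 548, 526 and 418 in the DMSO libraries and 289.8, 259.8 and 258 with blebbistatin, so every treated library lay below every control. The log2 change was -0.88 (SE 0.099, limma adjusted p = 1.1e-05), leaving 54.5% of the DMSO level. With Y27632 the counts were 381, 462 and 377 against 569.8, 546 and 435 in DMSO, groups that overlapped, with a log2 change of -0.34 (SE 0.103, limma adjusted p = 0.0204). This second call was lost without DMSO replicate 1 or 2 or without Y27632 replicate 1 or 3, the limma adjusted p being 0.00142 to 0.0926 over the fits that leave out 1 library. Itga1 shares part of its locus with the protein-coding gene Pelo.

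Itga2, the other classical collagen receptor chain, went the opposite way at a low level. It had 55.6, 49.6 and 44.8 normalised counts in DMSO and 87.3, 98.7 and 122 with blebbistatin, a log2 change of 1.02 (SE 0.163, limma adjusted p = 0.00021). With Y27632 it had 53.4, 46.0 and 53.5 counts beside 57.8, 51.5 and 46.6 in DMSO, groups that overlapped, and a log2 change of -0.03 (SE 0.166, limma adjusted p = 0.92).

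Itga10, a collagen receptor chain best known from cartilage, was higher with both inhibitors. Its counts were 369, 334 and 343 in DMSO and 645, 542 and 591 with blebbistatin, a log2 change of 0.76 (SE 0.075, limma adjusted p = 3.23e-06). The Y27632 libraries had 530.0, 558 and 559 counts and the DMSO libraries 384, 347 and 357 on that table's scale, a log2 change of 0.60 (SE 0.064, limma adjusted p = 1.18e-05). Neither pair of groups overlapped. Sox9, the chondrocyte marker, was also higher, by 0.55 (SE 0.111, limma adjusted p = 0.00124) with blebbistatin and 0.52 (SE 0.108, limma adjusted p = 0.00231) with Y27632, and the part of such cells in the rise of Itga10 was not tested. Itga11, the collagen I receptor chain typical of fibroblasts, had 1026, 954 and 1018 counts with Y27632 and 725, 823 and 772 in DMSO, a log2 change of 0.37 (SE 0.056, limma adjusted p = 0.000209). Its counts were 792, 862 and 870.1 with blebbistatin and 697, 793 and 743 in DMSO, groups that overlapped, with a log2 change of 0.18 (SE 0.061, limma adjusted p = 0.0274). The blebbistatin call for Itga11 was lost without DMSO replicate 1 or 3 or without blebbistatin replicate 2 or 3, with limma adjusted p values of 0.0151 to 0.113 over the left-out libraries.

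Itga3 and Itga7, of the laminin-binding alpha chains, differed between the inhibitors, while the difference of Itga6 was not called. Itga3, whose product binds laminins of basement membranes, had 521, 418 and 419 counts in DMSO and 242, 265 and 268 with blebbistatin, a log2 change of -0.80 (SE 0.093, limma adjusted p = 1.34e-05). With Y27632 its counts were 349.5, 435 and 432 against 542, 434 and 436, overlapping groups, with a log2 change of -0.21 (SE 0.101, limma adjusted p = 0.117). Itga7, the laminin receptor chain best known from muscle, had 663, 591 and 616 counts in DMSO and fell to 404, 430.0 and 399 with blebbistatin, a log2 change of -0.60 (SE 0.064, limma adjusted p = 6.65e-06). With Y27632 it rose to 892, 962 and 900.4 counts from 689.5, 614 and 639.9 in DMSO, a log2 change of 0.50 (SE 0.056, limma adjusted p = 1.83e-05). All 3 blebbistatin libraries lay below and all 3 Y27632 libraries above their controls, and Itga7 was the only member called in opposite directions by the inhibitors. Its locus overlaps the protein-coding gene Mettl7b. Itga6, a further laminin receptor chain, had 733, 612 and 563 counts in DMSO and 721, 617 and 592 with blebbistatin, and on the other table's scale 762, 636 and 585 in DMSO and 620.2, 607 and 626 with Y27632. Its groups overlapped and it was called in neither comparison.

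Among the RGD-binding alpha chains, Itga8 rose, Itgav fell and Itga5 was not called. Itga8 encodes a receptor chain for nephronectin and fibronectin found on mesenchymal cells. It had 156, 168 and 162 normalised counts in DMSO and 396, 419 and 415 with blebbistatin, the largest rise among the members, with a log2 change of 1.34 (SE 0.077, limma adjusted p = 2.33e-08). With Y27632 the counts were 349.5, 312 and 382 against 162, 174 and 168, a log2 change of 1.04 (SE 0.09, limma adjusted p = 1.92e-06). In both comparisons every treated library exceeded every control. Itgav, the alpha chain shared by the vitronectin receptors and by integrins that activate TGF-beta, had 7034 ± 176 (SD, n = 3) counts in DMSO and 5484 ± 94.1 (SD, n = 3) with blebbistatin, a log2 change of -0.36 (SE 0.032, limma adjusted p = 1.16e-06). Y27632 lowered it from 7308 ± 177 (SD, n = 3) to 6116 ± 113 (SD, n = 3), a log2 change of -0.26 (SE 0.031, limma adjusted p = 3.4e-05). Itga5, the chain of the main fibronectin receptor, had 8129, 8181 and 8481 counts in DMSO and 8389, 7985 and 8142 with blebbistatin, overlapping groups with log2 changes of -0.02 (SE 0.032, limma adjusted p = 0.701) for blebbistatin and 0.05 (SE 0.042, limma adjusted p = 0.395) for Y27632.

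The remaining alpha chains were Itga4 and Itga9, whose products bind fibronectin and VCAM1 or tenascin-C. Itga4, also a leukocyte integrin, had 63.5, 58.5 and 43.7 counts in DMSO, 70.6, 79.8 and 84.5 with blebbistatin and, on the Y27632 table's scale, 66.1, 60.7 and 45.4 in DMSO and 114, 108 and 118 with Y27632. The log2 changes were 0.51 (SE 0.172, limma adjusted p = 0.0251) with blebbistatin and 0.99 (SE 0.156, limma adjusted p = 0.000297) with Y27632. The blebbistatin call was lost without DMSO replicate 3 or without blebbistatin replicate 2 or 3, and with DESeq2, and over all alternatives the adjusted p ran from 0.0132 to 0.0983. The Itga4 locus overlaps Cerkl. Itga9 had 489, 489 and 461 counts in DMSO and 537, 582 and 535 with blebbistatin, a log2 change of 0.20 (SE 0.061, limma adjusted p = 0.0156) that was not called without DMSO replicate 3 or blebbistatin replicate 2, with limma adjusted p values up to 0.0638. With Y27632 its log2 change was -0.09 (SE 0.077, limma adjusted p = 0.417).

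Of the beta chains, Itgb3 changed most. Itgb3 pairs with the alpha v chain to bind vitronectin and fibronectin. Its counts were 1776, 1719.8 and 1694 in DMSO and 3414, 3244 and 3100.0 with blebbistatin, a log2 change of 0.91 (SE 0.042, limma adjusted p = 3.04e-09) or 188% of the DMSO level. The Y27632 libraries had 2608, 2575 and 2498 counts against 1847, 1785 and 1761, a log2 change of 0.51 (SE 0.036, limma adjusted p = 2.91e-07). Itgb1, the partner of most collagen, laminin and fibronectin receptor chains, had 33021 ± 463 (SD, n = 3) counts in DMSO and 28540.3 ± 579.6 (SD, n = 3) with blebbistatin, groups that did not overlap, with a log2 change of -0.21 (SE 0.03, limma adjusted p = 6.95e-05). With Y27632 it stood at 33364 ± 571 (SD, n = 3) against 34308 ± 463 (SD, n = 3), and its log2 change was -0.04 (SE 0.029, limma adjusted p = 0.309). Itgb5, a further partner of alpha v, rose with Y27632 from 12520.4 ± 219 (SD, n = 3) to 14739 ± 270.4 (SD, n = 3), a log2 change of 0.24 (SE 0.029, limma adjusted p = 4.25e-05). With blebbistatin its log2 change was 0.07 (SE 0.029, limma adjusted p = 0.0676), which was called when the 9 libraries were scaled together and fitted with edgeR, at an adjusted p of 0.0355. Itgb8, an alpha v partner that binds latent TGF-beta, had 241, 276 and 227 counts in DMSO and 232, 239 and 255 with blebbistatin and was not called, with log2 changes of -0.03 (SE 0.092, limma adjusted p = 0.785) for blebbistatin and 0.16 (SE 0.089, limma adjusted p = 0.195) for Y27632.

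Integrins typical of leukocytes and other cells, which are not among the members, were mostly higher with both inhibitors. Of 11 such genes, 7 were tested. With blebbistatin 5 rose and 1 fell, and with Y27632 4 rose and 1 fell. The shares that rose were 71.4% and 57.1%, beside 26.1% and 18.1% of all genes tested. The share that fell was 14.3% with each, beside 26.9% and 17.8%. Itgb2, the shared beta chain of the leukocyte integrins, had 733 ± 28.7 (SD, n = 3) counts in DMSO and 1125 ± 59.9 (SD, n = 3) with blebbistatin, a log2 change of 0.62 (SE 0.054, limma adjusted p = 1.01e-06), and changed by 0.67 (SE 0.049, limma adjusted p = 3.37e-07) with Y27632. Itgax, an alpha chain of dendritic cells and macrophages, changed by 0.60 (SE 0.099, limma adjusted p = 0.000261) and 0.75 (SE 0.094, limma adjusted p = 4.51e-05) in the same order. Itga2b, the platelet chain that pairs with the product of Itgb3, fell with both inhibitors, with log2 changes of -0.26 and -0.51 (limma adjusted p = 0.00232 and 2.12e-05). Of the 6 macrophage and leukocyte markers 5 were called higher with each inhibitor, and the part of these cells in the rise of Itga4 and Itgb3 was not tested.

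The genes for integrin activation and the ILK-PINCH-parvin complex fell almost as a block, 6 of 7 with blebbistatin and all 7 with Y27632. These shares, 85.7% and 100%, stood beside 26.9% and 17.8% of all genes called lower. Tln1 encodes talin, the protein that binds integrin beta tails and bears load between integrin and actin. Its counts were 20774, 20220.4 and 18509 in DMSO and 13549, 13647 and 13496 with blebbistatin, a log2 change of -0.55 (SE 0.04, limma adjusted p = 1.94e-07). With Y27632 they were 15314, 16333 and 16686 against 21597, 20992 and 19234, a log2 change of -0.35 (SE 0.044, limma adjusted p = 4.35e-05). Tln2, the second talin gene, had 5087, 5296 and 4636 counts in DMSO and 2847, 3092 and 2956 with blebbistatin, a log2 change of -0.75 (SE 0.049, limma adjusted p = 6.48e-08). With Y27632 it had 3217, 3413 and 3604 counts against 5288, 5498 and 4818, a log2 change of -0.61 (SE 0.05, limma adjusted p = 1.19e-06). For both talin genes the treated libraries lay below the controls without overlap in each comparison.

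The genes of kindlin-2 and of the ILK complex fell by differing amounts. Fermt2, which encodes kindlin-2, went from 4815 ± 156 (SD, n = 3) in DMSO to 3567 ± 57.0 (SD, n = 3) with blebbistatin, a log2 change of -0.43 (SE 0.034, limma adjusted p = 4.48e-07), and changed by -0.21 (SE 0.035, limma adjusted p = 0.000537) with Y27632. Ilk, the pseudokinase at the centre of the complex, changed by -0.38 (SE 0.036, limma adjusted p = 2.64e-06) with blebbistatin and -0.14 (SE 0.033, limma adjusted p = 0.00405) with Y27632, and its locus overlaps Rrp8 and Taf10. Parva, which encodes alpha-parvin, had 9422, 8927 and 8916 counts in DMSO and 7543, 7438 and 7652 with blebbistatin, a log2 change of -0.27 (SE 0.032, limma adjusted p = 1.76e-05), the smallest called change with that inhibitor in this role. Its log2 change with Y27632 was -0.15 (SE 0.032, limma adjusted p = 0.00218). The PINCH genes differed from each other. Lims1 fell from 5489.7 ± 325 (SD, n = 3) counts to 3878 ± 98.6 (SD, n = 3) with blebbistatin, a log2 change of -0.50 (SE 0.043, limma adjusted p = 8.42e-07), and changed by -0.25 (SE 0.045, limma adjusted p = 0.000822) with Y27632. Lims2 had 446 ± 37.2 (SD, n = 3) counts in DMSO and 442 ± 11.9 (SD, n = 3) with blebbistatin, overlapping groups with a log2 change of -0.01 (SE 0.072, limma adjusted p = 0.932). It went from 463 ± 38.9 (SD, n = 3) to 331 ± 16.4 (SD, n = 3) with Y27632, a log2 change of -0.48 (SE 0.076, limma adjusted p = 0.000295). The Lims2 locus overlaps Gpr17.

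Of the 4 adhesion kinases and scaffolds, 2 fell with blebbistatin and 1 rose with Y27632. The shares called, 50% and 25%, were not above the 53% and 35.9% of all genes tested. Ptk2, which encodes focal adhesion kinase, went from 2359 ± 28.7 (SD, n = 3) to 1972 ± 73.7 (SD, n = 3) with blebbistatin, a log2 change of -0.26 (SE 0.039, limma adjusted p = 0.000111), and its log2 change with Y27632 was -0.09 (SE 0.038, limma adjusted p = 0.094), a value called without Y27632 replicate 1 at a limma adjusted p of 0.0316. Bcar1, the scaffold p130Cas that is stretched under load, changed by -0.41 (SE 0.047, limma adjusted p = 1.16e-05) with blebbistatin and by -0.06 (SE 0.039, limma adjusted p = 0.27) with Y27632. Src, the kinase that acts with focal adhesion kinase, had 1844, 1886 and 1861 counts in DMSO and 1885, 1901 and 1945 with blebbistatin, and on the other table's scale 1917, 1958 and 1934 in DMSO and 1832, 1845 and 1965 with Y27632. It was called in neither comparison. Pxn, which encodes the scaffold paxillin, had 3064 ± 139 (SD, n = 3) counts in DMSO and 3613 ± 193 (SD, n = 3) with Y27632, a rise of 0.24 (SE 0.044, limma adjusted p = 0.00112) on the log2 scale. With blebbistatin the log2 change of Pxn was 0.01 (SE 0.038, limma adjusted p = 0.826).

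Actin linkers held several of the largest changes, with 8 of 9 lower with blebbistatin and 7 of 9 lower with Y27632. That is 88.9% and 77.8%, beside 26.9% and 17.8% of all genes called lower. Vcl encodes vinculin, which reinforces the link between talin and actin. It had 13729.7, 13616 and 13258 counts in DMSO and 6528, 6559 and 6787 with blebbistatin, a log2 change of -1.03 (SE 0.03, limma adjusted p = 7.3e-11) that left 49% of the DMSO level. With Y27632 the counts were 9567, 9343 and 9892 against 14274, 14135 and 13778, a log2 change of -0.55 (SE 0.031, limma adjusted p = 3.47e-08). Groups did not overlap in either comparison. The Vcl locus overlaps Ap3m1.

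Alpha-actinins crosslink actin filaments at adhesions. Actn1 had 14132, 13923 and 14009 counts in DMSO and 7678, 7477 and 7399.8 with blebbistatin. With Y27632 it had 10192, 10031 and 9813 against 14692, 14454 and 14558 in DMSO, and groups overlapped in neither comparison. Its log2 changes were -0.90 (SE 0.029, limma adjusted p = 1.44e-10) and -0.54 (SE 0.028, limma adjusted p = 1.67e-08). Actn4, the second non-muscle alpha-actinin, had 13558 ± 216 (SD, n = 3) counts in DMSO and 10815 ± 182 (SD, n = 3) with blebbistatin. Its log2 changes were -0.33 (SE 0.029, limma adjusted p = 1.32e-06) with blebbistatin and -0.43 (SE 0.028, limma adjusted p = 1.22e-07) with Y27632, and its locus overlaps Capn12. Actn1 had the larger drop of the pair with each inhibitor.

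Filamins are long actin crosslinkers that bind integrin beta tails. Flna had 46657 ± 1791 (SD, n = 3) counts in DMSO and 33103 ± 517 (SD, n = 3) with blebbistatin, a log2 change of -0.49 (SE 0.034, limma adjusted p = 1.16e-07). With Y27632 it had 34895 ± 1058 (SD, n = 3) counts against 48475 ± 1848 (SD, n = 3), a log2 change of -0.47 (SE 0.036, limma adjusted p = 5.23e-07). Flnc, the filamin best known from muscle, had 24958, 24111 and 21859.9 counts in DMSO and 12148, 12421 and 11748 with blebbistatin, a log2 change of -0.96 (SE 0.045, limma adjusted p = 3.29e-09). With Y27632 the Flnc counts were 18580.0, 18779 and 20499.5 against 25947, 25031 and 22717, a log2 change of -0.35 (SE 0.049, limma adjusted p = 0.000116). All treated libraries of both filamin genes lay below their controls.

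Tensins bind integrin tails and actin at the fibrillar adhesions along which fibronectin is assembled. Tns3 had 13513, 13022 and 12138 counts in DMSO and 7513, 7754 and 7618 with blebbistatin, a log2 change of -0.76 (SE 0.039, limma adjusted p = 7.65e-09). With Y27632 the counts of 12922, 13629.8 and 13908 ran through the DMSO values of 14048, 13519 and 12614, with a log2 change of 0.01 (SE 0.041, limma adjusted p = 0.863). Tns1 had 11618, 10749 and 9688 counts in DMSO and 8513, 8725 and 8811 with blebbistatin, a log2 change of -0.30 (SE 0.052, limma adjusted p = 0.000456), and its Y27632 libraries at 9711, 11258 and 10856 overlapped the controls, with a log2 change of -0.06 (SE 0.062, limma adjusted p = 0.449). Tns1 shares its locus with Rufy4.

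Among the remaining linkers, Nexn and Sorbs3 were lower with Y27632 than with blebbistatin. Nexn encodes nexilin, an actin-binding protein of adhesions and muscle Z-discs. It had 233, 255 and 259 counts in DMSO and 149, 116 and 96.4 with Y27632, the largest drop with that inhibitor, at a log2 change of -1.06 (SE 0.136, limma adjusted p = 5.75e-05). With blebbistatin it had 169, 196 and 201 counts against 224, 246 and 249, a log2 change of -0.35 (SE 0.096, limma adjusted p = 0.00902). Sorbs3, which encodes the vinculin-binding protein vinexin, changed by -0.30 (SE 0.039, limma adjusted p = 6.24e-05) with Y27632 and by -0.02 (SE 0.035, limma adjusted p = 0.715) with blebbistatin.

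**Figure D3:**
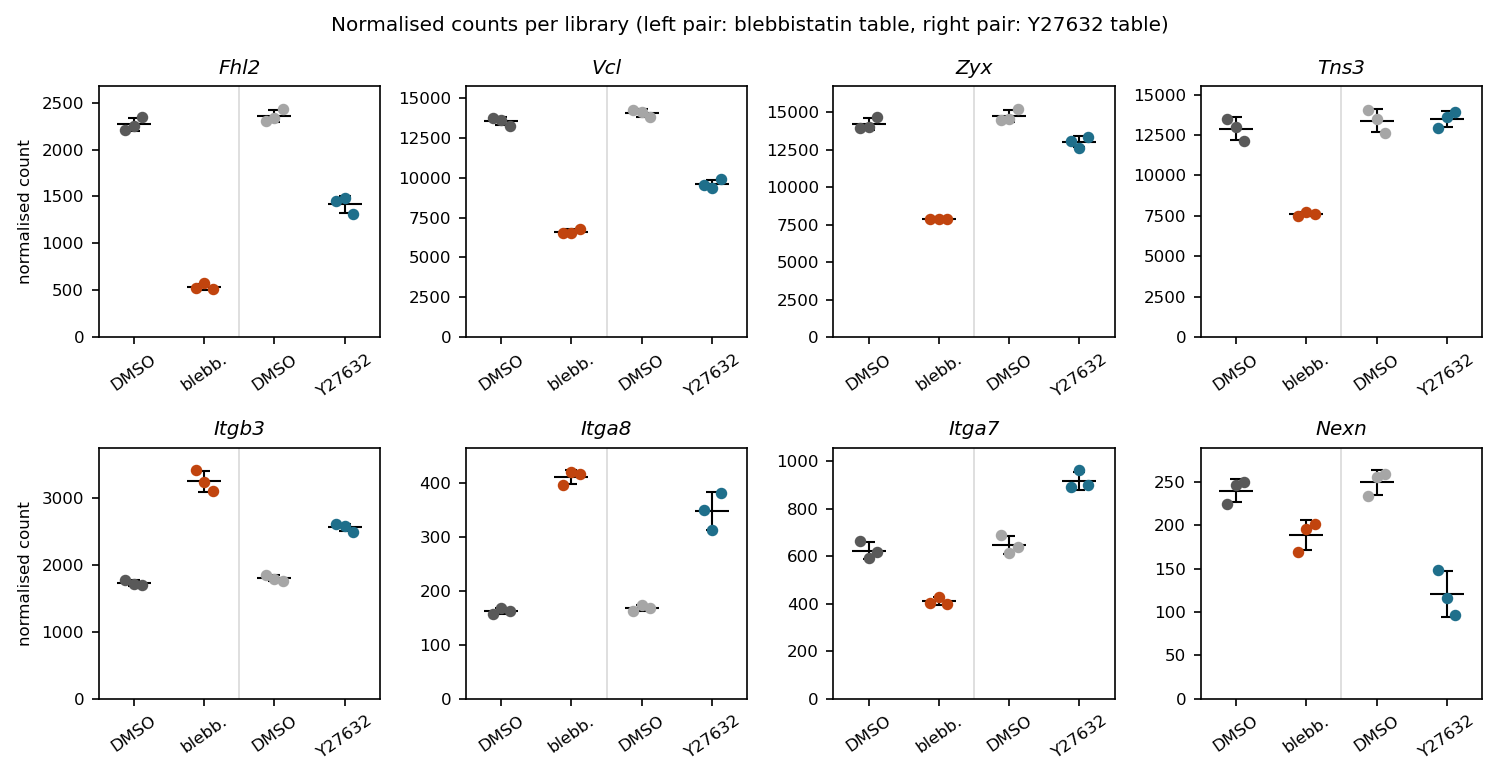
Normalised counts of 8 members in each library (points) with the mean (bar) and SD (whisker), n = 3 per group, in the table for blebbistatin (left pair of each panel) and the table for Y27632 (right pair), with the vertical axis starting at 0. Fhl2 falls from 2213 to 2342 in DMSO to 515 to 576 with blebbistatin, Tns3 falls with blebbistatin only, Itga7 lies below its controls with blebbistatin and above them with Y27632, and Nexn is lowest with Y27632.

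The LIM-domain and VASP-family genes held the largest single change, in Fhl2. Fhl2 encodes a LIM-only protein found at adhesions and in the nucleus. Its normalised counts were 2213, 2251 and 2342 in DMSO and 526, 576 and 515 with blebbistatin. The log2 change of -2.07 (SE 0.052, limma adjusted p = 2.07e-11) left 23.8% of the DMSO level, and no other member fell as far. With Y27632 the counts were 1449, 1488 and 1308 against 2301, 2337 and 2434, a log2 change of -0.74 (SE 0.048, limma adjusted p = 1.41e-07). Fhl1, its relative that binds titin in muscle, had 3228 ± 27.2 (SD, n = 3) counts in DMSO and 3001 ± 81.0 (SD, n = 3) with blebbistatin, a log2 change of -0.11 (SE 0.034, limma adjusted p = 0.0198). This small drop was not called with DESeq2, nor without DMSO replicate 1 or 2 or blebbistatin replicate 1, where the limma adjusted p reached 0.0884. With Y27632 the log2 change of Fhl1 was -0.21 (SE 0.033, limma adjusted p = 0.000287).

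The zyxin family responds to tension at adhesions and stress fibres. Zyx had 13913, 14002 and 14644 counts in DMSO and 7881, 7851 and 7853 with blebbistatin, groups that did not overlap. The log2 change was -0.85 (SE 0.03, limma adjusted p = 3.39e-10). With Y27632 the counts were 13081, 12618 and 13371 against 14464, 14536 and 15218, a log2 change of -0.18 (SE 0.033, limma adjusted p = 0.000908). The Zyx locus overlaps Epha1. Lpp, the lipoma-preferred partner, had 6015, 6542 and 4985 counts in DMSO and 4053, 4168 and 4027 with blebbistatin, a log2 change of -0.51 (SE 0.074, limma adjusted p = 8.94e-05). Its Y27632 counts of 4415, 5066 and 5089 stood against 6253, 6791 and 5179.9 in DMSO, a log2 change of -0.32 (SE 0.08, limma adjusted p = 0.00756). Trip6, the third family member, changed by -0.20 (SE 0.039, limma adjusted p = 0.000748) with blebbistatin and by -0.04 (SE 0.037, limma adjusted p = 0.45) with Y27632.

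The actin polymerisation factors of the VASP family did not follow the linkers. Vasp had 2505, 2462 and 2502 counts in DMSO and 2356, 2439 and 2280.4 with blebbistatin, a log2 change of -0.08 (SE 0.037, limma adjusted p = 0.0901) that was called without blebbistatin replicate 2, at a limma adjusted p of 0.0439. With Y27632 its log2 change was 0.04 (SE 0.034, limma adjusted p = 0.424). Enah, which encodes the relative Mena, had 3442 ± 25.7 (SD, n = 3) counts in DMSO and 3773 ± 146 (SD, n = 3) with Y27632, a log2 change of 0.13 (SE 0.035, limma adjusted p = 0.0104). With blebbistatin the log2 change of Enah was 0.10 (SE 0.041, limma adjusted p = 0.051), just outside the threshold, and the adjusted p ran from 0.00828 to 0.215 over the alternatives, 5 of which called it higher.

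The PDZ-LIM proteins and the remaining LIM proteins fell by unequal amounts. Pdlim5, a scaffold of alpha-actinin and protein kinase C, had 6372, 6211 and 6111 counts in DMSO and 3798, 3959.6 and 4060.1 with blebbistatin, a log2 change of -0.66 (SE 0.035, limma adjusted p = 9.41e-09). With Y27632 it stood at 5967, 5958 and 6232 against 6625, 6447 and 6351, and the log2 change was -0.10 (SE 0.032, limma adjusted p = 0.0293). That call was lost without DMSO replicate 1 or 2 or without Y27632 replicate 1 or 2, with limma adjusted p values of 0.0234 to 0.0986. Pdlim7 went from 2172 ± 149 (SD, n = 3) to 1591 ± 26.8 (SD, n = 3) with blebbistatin, a log2 change of -0.45 (SE 0.049, limma adjusted p = 8.19e-06), and changed by -0.23 (SE 0.047, limma adjusted p = 0.00195) with Y27632. Tgfb1i1, which encodes the paxillin relative Hic-5, changed by -0.17 (SE 0.033, limma adjusted p = 0.00087) and -0.21 (SE 0.035, limma adjusted p = 0.000384) in the same order. Csrp1, a muscle-type LIM protein, had a log2 change of -0.15 (SE 0.036, limma adjusted p = 0.00535) with Y27632. Its log2 change of -0.08 (SE 0.031, limma adjusted p = 0.0379) with blebbistatin was not called when any 1 of the 6 libraries was left out, with no filter on low values, with DESeq2, or with the 9 libraries scaled together, the adjusted p reaching 0.108.

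Whether the inhibitors differed from each other was tested directly, with edgeR on the whole reads of the 9 libraries scaled together. Of 14927 genes tested, 53.1% were called, 26.9% with the higher level under blebbistatin and 26.2% with the lower. Of the 47 members, 39 were called, 28 lower and 11 higher with blebbistatin, and the median log2 difference was -0.16 beside 0.0052 over all genes. Among the 31 adhesion proteins 20 were lower and 6 higher with blebbistatin, and among the 16 integrin chains 8 were lower and 5 higher. Called differences of at least 0.5 were found in 16.9% of all genes, 6.23% lower and 10.7% higher, and in 8 members that were lower and 2 that were higher. The libraries of the inhibitors did not overlap for 39 members, beside 60.7% of all genes. The standard errors given for these differences come from a limma fit on the jointly scaled counts, since edgeR gives none.

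Fhl2 differed most. On the joint scale it had 554, 613 and 541 counts with blebbistatin and 1477, 1512 and 1325 with Y27632, a log2 difference of -1.33 (SE 0.058, edgeR adjusted p = 3.22e-10). Itga7 came next, with 426, 457 and 419 counts against 909, 978 and 912 and a log2 difference of -1.09 (SE 0.059, edgeR adjusted p = 2.18e-09). Tns3 had 7917, 8246 and 8012 counts with blebbistatin and 13172, 13857 and 14084 with Y27632, a log2 difference of -0.75 (SE 0.038, edgeR adjusted p = 1.59e-09). The blebbistatin libraries of these 3 genes all lay below the Y27632 libraries.

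Zyx, Flnc and Pdlim5 were also lower with blebbistatin. Zyx had 8305, 8349 and 8259 counts against 13335, 12828 and 13539.7 with Y27632, a log2 difference of -0.66 (SE 0.03, edgeR adjusted p = 4.87e-10). For Flnc the counts were 12802, 13208 and 12356 against 18940.2, 19092 and 20758 and the difference was -0.60 (SE 0.047, edgeR adjusted p = 9.89e-08). Pdlim5 differed by -0.55 (SE 0.033, edgeR adjusted p = 6.6e-09), Vcl by -0.47 (SE 0.029, edgeR adjusted p = 1.44e-08) and Actn1 by -0.35 (SE 0.028, edgeR adjusted p = 1.51e-07). Among the integrins, Itga3 differed by -0.57 (SE 0.1, edgeR adjusted p = 0.000334) and Itga1 by -0.53 (SE 0.104, edgeR adjusted p = 0.000788), while Itga4 was the lower with blebbistatin of a pair of raised levels, at -0.46 (SE 0.151, edgeR adjusted p = 0.011).

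The opposite order held for Itga2, Nexn, Lims2 and Itgb3. Itga2 had 91.9, 105 and 129 counts with blebbistatin and 54.4, 46.8 and 54.1 with Y27632, a log2 difference of 1.08 (SE 0.159, edgeR adjusted p = 5.34e-05). Nexn had 178, 208 and 212 counts against 152, 118 and 97.7, a log2 difference of 0.70 (SE 0.136, edgeR adjusted p = 0.000533). Lims2 differed by 0.49 (SE 0.071, edgeR adjusted p = 4.24e-05), Itgb3 by 0.41 (SE 0.04, edgeR adjusted p = 7.08e-07), Itga8 by 0.31 (SE 0.081, edgeR adjusted p = 0.00318) and Sorbs3 by 0.29 (SE 0.038, edgeR adjusted p = 1.87e-05). In all 6 the blebbistatin libraries were above the Y27632 libraries without overlap.

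Some members gave no call between the inhibitors or one that depended on a library. Flna had 34967 ± 579 (SD, n = 3) counts with blebbistatin and 35459 ± 985 (SD, n = 3) with Y27632, overlapping groups with a log2 difference of -0.01 (SE 0.033, edgeR adjusted p = 0.837). The calls for Itga10 at 0.18 (SE 0.068, edgeR adjusted p = 0.0363), Tln2 at -0.13 (SE 0.051, edgeR adjusted p = 0.0403) and Src at 0.09 (SE 0.036, edgeR adjusted p = 0.0456) were each lost without at least 5 of the single libraries, and those of Itga10 and Src also with DESeq2 and with limma. Without blebbistatin replicate 1 the Itga10 difference was 0.11 in place of 0.18. The call for Itga11 at -0.18 was lost without blebbistatin replicate 1 or Y27632 replicate 1, that for Itgav at -0.09 without blebbistatin replicate 2 or Y27632 replicate 3, and that for Vasp at -0.10 without replicate 3 of either inhibitor. Lpp, at -0.18 (SE 0.076, edgeR adjusted p = 0.0582), was called in 7 of the alternatives, among them the fits without DMSO replicate 2 or 3 or without Y27632 replicate 1. Csrp1, at 0.08 (SE 0.034, edgeR adjusted p = 0.0532), was called without Y27632 replicate 3 and Itga5, at -0.06 (SE 0.041, edgeR adjusted p = 0.275), without Y27632 replicate 2.

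**Figure D4:**
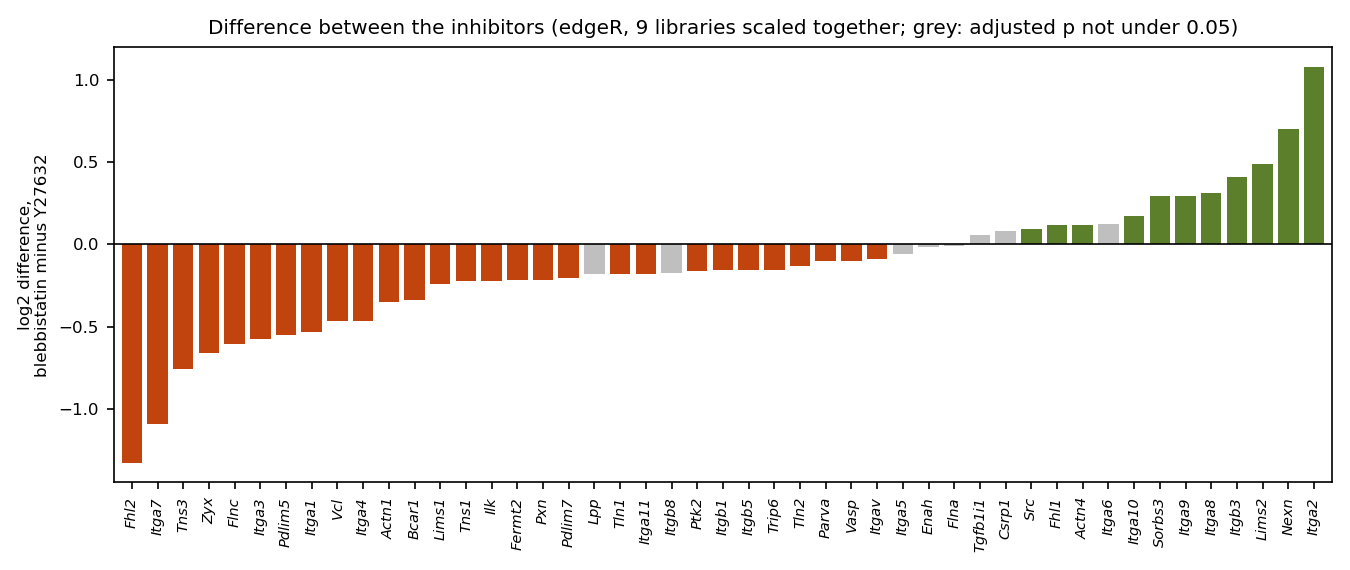
Log2 difference of each of the 47 members between blebbistatin and Y27632, from edgeR on 9 libraries scaled together, ordered from lowest to highest, with bars starting at 0 and grey bars where the adjusted p was not under 0.05. The bars run from -1.33 for Fhl2 to 1.08 for Itga2, with 28 called below 0 and 11 above it.

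Other adhesion adaptors, on a longer list from textbook knowledge, went both ways in similar numbers. Of 56 such genes, 53 were tested with blebbistatin, 21 rose and 20 fell, and the median log2 change was 0.043. These shares were 39.6% higher and 37.7% lower, beside 26.1% and 26.9% of all genes tested. With Y27632, 12 of 52 rose and 16 fell, with a median of 0.015. These shares were 23.1% higher and 30.8% lower, beside 18.1% and 17.8% of all genes tested. The largest drop with either inhibitor was in Ajuba, a LIM protein gene related to Zyx, which had 2464, 2469 and 2406 counts in DMSO and 819.6, 965 and 884 with blebbistatin. Its log2 changes were -1.46 (SE 0.054, limma adjusted p = 5.05e-10) with blebbistatin and -0.64 (SE 0.035, limma adjusted p = 2.55e-08) with Y27632. Nedd9, a relative of Bcar1, had 2947, 3252 and 3117 counts in DMSO and 1357, 1445 and 1502 with blebbistatin, a log2 change of -1.11 (SE 0.048, limma adjusted p = 1.85e-09). Its log2 change with Y27632 was -0.41 (limma adjusted p = 1.5e-05). Sorbs2, a relative of Sorbs3, rose from 109.6 ± 15.9 (SD, n = 3) to 240.3 ± 21.4 (SD, n = 3), a log2 change of 1.13 (SE 0.123, limma adjusted p = 7.58e-06), and by 0.69 (SE 0.134, limma adjusted p = 0.0015) with Y27632. Pdlim3, an alpha-actinin partner of muscle, was near the detection limit, with 7.94, 0.00 and 1.15 counts in DMSO and 31.2, 24.7 and 21.1 with blebbistatin. Its log2 change of 3.30 (SE 0.648, limma adjusted p = 0.000978) was 2.05 with a pseudocount of 5. Fermt3, the kindlin of blood cells, rose with Y27632 by 0.59 (SE 0.128, limma adjusted p = 0.00311) and with blebbistatin by 0.47 (limma adjusted p = 0.00812). Actn3, a muscle alpha-actinin, was higher with blebbistatin than with Y27632, by 0.94 (SE 0.187, edgeR adjusted p = 0.000535).

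Genes for the matrix proteins that integrins bind also went both ways. Of 21 tested ligand genes, 6 rose and 10 fell with blebbistatin, and 5 rose and 7 fell with Y27632. The shares with blebbistatin were 28.6% higher and 47.6% lower, beside 26.1% and 26.9% of all genes tested. With Y27632 they were 23.8% and 33.3%, beside 18.1% and 17.8%. Thbs1, which encodes the adhesive glycoprotein thrombospondin-1, went from 254507 ± 9429 (SD, n = 3) to 51529.8 ± 4275 (SD, n = 3) with blebbistatin, a log2 change of -2.31 (SE 0.054, limma adjusted p = 1.15e-11), and changed by -0.41 (SE 0.05, limma adjusted p = 4.15e-05) with Y27632. Cyr61, an integrin ligand of the CCN family and a textbook YAP target, had 9898, 10690.5 and 10942 counts in DMSO and 2346, 2666 and 2818 with blebbistatin, a log2 change of -2.01 (SE 0.059, limma adjusted p = 7.3e-11). Its Y27632 change of -0.13 (SE 0.045, limma adjusted p = 0.0372) was lost without DMSO replicate 2 or 3, without Y27632 replicate 1 or 2, and with the 9 libraries scaled together. Tgfbi and Col4a1, a collagen-bound integrin ligand and a basement membrane collagen, rose with blebbistatin by 0.80 (SE 0.05, limma adjusted p = 4.86e-08) and 0.71 (SE 0.045, limma adjusted p = 5.43e-08). Col4a1 also rose with Y27632, by 0.21 (limma adjusted p = 0.00175). The Y27632 change of Tgfbi was 0.12 (limma adjusted p = 0.1), called only without DMSO replicate 1. Vcam1, a ligand of integrins with the alpha4 chain, rose with Y27632 by 0.33 (SE 0.031, limma adjusted p = 3.75e-06) and had a blebbistatin change of -0.07 (SE 0.029, limma adjusted p = 0.0678), called without DMSO replicate 3. Spp1, which encodes osteopontin, changed by 0.39 (SE 0.043, limma adjusted p = 1.65e-05) and Lama5, a laminin alpha chain, by -0.57 (SE 0.097, limma adjusted p = 0.000533) with Y27632. Spp1 rose with blebbistatin too, by 0.39 (limma adjusted p = 2.18e-06). The blebbistatin change of Lama5 was -0.17 (limma adjusted p = 0.168), called only without DMSO replicate 3.

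Accessible chromatin near the members was read from the authors' deposited site lists, which give group means but no value per library, so the folds and FDR values are the authors' and no test was made here. Sites and coordinates are on mm10. In the ATAC list for blebbistatin, 5 of 970 sites were annotated to 4 members, Actn1, Actn4, Tns1 and Tns3. These genes are 8.51% of the members, where 3.49% of the genes tested for RNA had a site in that list. All 5 were less accessible, as were 98.2% of all sites listed. The lowest fold was at an intronic site of Tns1 at chr1:74024834-74025018, with a log2 fold of -1.66 (FDR 0.00719). The next was in an intron of Actn4 at chr7:28945460-28946161, with a log2 fold of -1.52 (FDR 0.0389). A TEAD motif was marked in the authors' list at 603 of the 970 sites, 62.2%, and at 2 of the 5 sites, both of Tns3.

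The Actn4 intron was listed again in other libraries. In the ATAC list for Y27632, 2 of 207 sites were annotated to members, and both lay in Actn4 introns. Actn4 alone is 2.13% of the members, where 0.833% of genes had a site. Both sites were lower, as were 85.0% of the list. The site at chr7:28945460-28946161 had a log2 fold of -1.37 (FDR 0.00948) and that at chr7:28951857-28952233 a log2 fold of -1.35 (FDR 0.0202). In the doxycycline experiment, whose libraries are not shared with these, the list for blebbistatin without doxycycline held overlapping sites at chr7:28945557-28945908 with a log2 fold of -1.57 (FDR 1.76e-05) and at chr7:28951841-28952275 with a log2 fold of -1.23 (FDR 1.23e-05). The ATAC comparisons of the inhibitors share their DMSO libraries. Both Actn4 regions were thus listed as lower with a contractility inhibitor in each experiment, as most sites of these lists were. The region at chr7:28951857-28952233 was listed with Y27632 only in the first experiment, and with blebbistatin in the doxycycline experiment. No Actn4 site was in the list for blebbistatin with doxycycline. Actn4 RNA was lower with both inhibitors, as given above.

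In the list for blebbistatin without doxycycline, 7 of 1231 sites belonged to 5 members, Actn4, Fhl1, Flna, Lims1 and Pdlim5. These are 10.6% of the 47, where 4.3% of genes had a site. All 7 were lower, as were 99.0% of the list. Besides Actn4, one is described because it covers a printed promoter, and it was chosen after its values were seen. The Fhl1 promoter site at chrX:56779377-56779602 had a log2 fold of -1.29 (FDR 0.00382), and the serum response element core of Fhl1, at chrX:56779581-56779590, lies inside it.

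Doxycycline without blebbistatin gave the most sites. Of 7613 sites listed, 44 were annotated to 23 members, 48.9% of the 47, where 24.3% of genes had a site. Of the 44, 43 were more accessible with doxycycline and 1 less, while 4.15% of the whole list was less accessible. The header of the reference column names the group with blebbistatin alone. At the 13 sites with identical coordinates the column lay a nearly constant -0.128 (SD 0.0044) on the log2 scale from the group with neither drug, and 1.12 (SD 0.184) from the group the header names. The folds are therefore read against the group with neither drug, a reading that rests on those 13 sites. The largest was an intergenic site annotated to Itgb1 at chr8:128633573-128633749, with a log2 fold of 2.17 (FDR 2.2e-07), at a distance of -51993 bases from the start. The second was annotated to Tln2 at chr9:67630201-67630352, with a log2 fold of 1.6 (FDR 1.51e-05). The only member site that fell lay near Ptk2, at chr15:73451769-73451885, with a log2 fold of -1.19 (FDR 0.0109). Sites over 6 member promoters were all higher. The values of the printed ones, picked after they were seen, were 1.24 for Actn4 (FDR 5.37e-08), 1.35 for Flnc (FDR 4.96e-09) and 1.09 for Fhl1 (FDR 1.61e-05). The capitals in each lie inside these sites, but Actn4 and Flnc were printed because they hold a core as well as a listed site. For Actn4 and Fhl1 the site covers all 300 bases of the promoter window. Sites of this list also overlapped the Enah and Ilk promoters, with log2 folds of 1.08 and 1 and no core inside them. These promoters were not printed.

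Adding blebbistatin to doxycycline lowered accessibility at 21 member sites of 6346 listed. They belonged to 13 members, 27.7% of the 47, where 17.5% of genes had a site, and all 21 were lower, as were 99.8% of the list. The lowest fold was at an intergenic site annotated to Enah at chr1:182021685-182021987, with a log2 fold of -1.5 (FDR 6.44e-12). The next was annotated to Lpp at chr16:24382223-24382593, with a log2 fold of -1.4 (FDR 1.33e-12). Both sites were also in the doxycycline list, with log2 folds of 1.22 and 1.46, and the group with doxycycline alone enters both comparisons. For Tns3, named here after its values were seen, the sites of the ATAC list at folds of -1.5 and -1.42 overlapped sites of the doxycycline list at folds of 1.1 and 1.02, and these lists share no library. Fhl2, the member with the largest RNA change, had 2 listed sites, both in the doxycycline list, with folds of 1.01 and 1.18, and Zyx had none in the 5 lists.

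**Figure D5:**
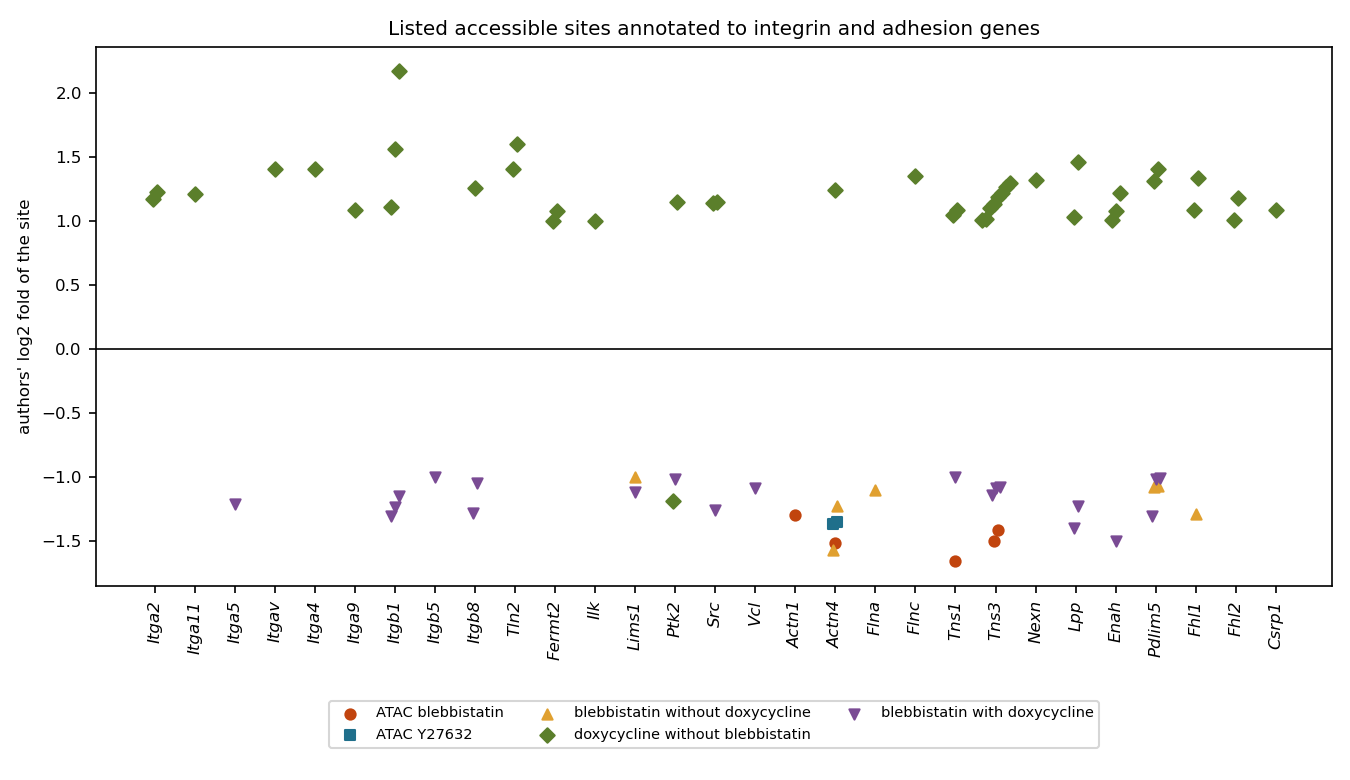
The authors' log2 fold of each listed site annotated to a member (points), by gene, with colour and shape for the 5 lists and 0 marked by a line. The 43 higher sites are all from doxycycline without blebbistatin, and every site of the 4 lists that test an inhibitor lies below 0, from -1.66 to -1.

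The authors' own tables of RNA gave close values. At an adjusted p under 0.05 in the authors' deposited table, 32 members changed with blebbistatin, 4 higher and 28 lower. In the authors' deposited table for Y27632, 33 changed, 9 higher and 24 lower. All of these were also called here with the same sign, and the log2 values differed by at most 0.021 and 0.029 from the authors' deposited table in the same order. A limit of all RNA values is that 28 of the 47 members overlap another annotated gene, 9 of them a protein-coding one, and the use of strand in counting is not given in the sources used here, so reads from overlapping genes cannot be told apart.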

How the data were processed

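RNA was measured in 9 libraries of mouse tail tendon fibroblasts, 3 each of DMSO, blebbistatin and Y27632, with 23375386 to 37061737 reads in genes, and chromatin in 21 further libraries that were read only through site lists. The submitters' processing notes name HISAT2, featureCounts, DESeq2, Bowtie2, Picard, SAMtools, MACS2, DiffBind, HOMER and mm10, without versions or roles. The authors deposited RNA values as a normalised signal, each table scaled on its own with 1 factor for every library. This was worked out from the values: 100% were whole multiples of 1 step within 0.05 reads, and the DMSO reads of the tables differed at 0 genes. The DMSO libraries are 1.04 times higher in the Y27632 table. The log2 fold changes and p-value columns of these tables are the authors', per the file headers. In the site lists, the headers name log2 group means, log2 folds, a p-value and an FDR, all from the authors, and a score column of the site's distance from the nearest start, with no values per library and unknown depth.

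Genes with a mean of at least 10 normalised counts were tested with limma 3.58.1 (R 4.3.3) with a trend on log2(value + 1), a scale that understates changes of low genes. Blebbistatin and Y27632 were compared with edgeR 4.0.16 (quasi-likelihood, TMM) on recovered reads. Benjamini-Hochberg adjustment ran over all genes tested, and calls needed an adjusted p under 0.05. The fits were tested on simulated data. Alternatives were other pseudocounts, filters and scalings, DESeq2 1.42.0, a replicate block and leaving out each library. All 9 pairs of libraries within groups differed beyond sampling noise. Members and lists were chosen with earlier results of these data known. Values per library are given for members with a called log2 change of at least 0.5 and for the smallest change of each role; other members have means. Outside the members, genes named are the 2 highest and 2 lowest called per list and comparison, of which some are not reported here, and sites the 2 largest folds per direction and list. Promoters are from RefSeq (GRCm38.p6). Sites carry the gene names the authors gave them.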

Additional observations from a re-analysis of the deposited data

Results flagged for a closer look

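Itga7, a laminin receptor chain, moved in opposite directions under the inhibitors. All 3 blebbistatin libraries were below the DMSO libraries and all 3 Y27632 libraries were above them, and the difference itself was tested, with a log2 difference of -1.09 (edgeR adjusted p = 2.18e-09) between blebbistatin and Y27632. It was called in every alternative that was run. Its locus overlaps Mettl7b, and the part of that gene in the reads was not tested.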

How the results depend on the processing

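Of 2755 values recomputed under alternatives, 22 changed sign, all in fits that left out 1 library and on values that were not called. Among the members called, 32 of 37 with blebbistatin, 31 of 33 with Y27632 and 33 of 39 between the inhibitors were called in every alternative. Leaving out 1 library gave 33 to 35, 31 to 33 and 35 to 39 members called in the same order, and median log2 changes of -0.282 to -0.242, -0.162 to -0.108 and -0.170 to -0.152. Over the same fits the blebbistatin change ran from -0.0644 to 0.127 for Itga6, -0.0352 to 0.00275 for Itga5, -0.0940 to 0.0444 for Itgb8, -0.0704 to 0.04999 for Lims2, -0.0122 to 0.0480 for Pxn and -0.0392 to 0.00284 for Sorbs3. The Y27632 change ran from -0.101 to 0.0526 for Itga2, -0.172 to 0.0181 for Itga6, -0.143 to 0.00413 for Itga9, -0.0319 to 0.0458 for Tns3 and -0.0916 to 0.0538 for Itgb4. The difference between the inhibitors ran from -0.0326 to 0.00491 for Flna and -0.0669 to 0.0177 for Enah. Other pseudocounts, filters, scalings and tools gave 34 to 38, 32 to 33 and 37 to 40 members called.

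The replicate numbers gave no sign of pairing: 9 correlations between libraries of the same number ran from -0.123 to 0.066. With 3 libraries per group, such correlations cannot show that the libraries were not prepared in pairs. With the replicate block 36, 32 and 39 members were called, Csrp1 losing its blebbistatin call and Pdlim5 its Y27632 call, while between the inhibitors Src lost its call and Lpp gained one.

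Site counts depended on the limits. With an FDR of at most 0.01, 1 member site was left in the ATAC list for blebbistatin, 1 in that for Y27632 and 3 in that for blebbistatin without doxycycline. Within 50000 bases of a start, 3 sites were left in the ATAC list for blebbistatin and 28 in the doxycycline list. With 1 mismatch allowed, 12 of 36 members held a serum response element core, 33.3% beside 23.8% of all genes, a smaller contrast than with the exact core (13.9% beside 1.81%). Members of low level, such as Itga2 and Nexn, carry larger errors.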
